A study of Mus musculus with 4 samples.

Results

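Replication-dependent histone genes were examined in mouse neural stem/progenitor cells (NSPCs) with and without the PARP inhibitor PJ34. The members are all non-control probes of the array whose listed gene name begins with Hist1h, Hist2h, Hist3h or Hist4h, which gave 55 of 55681 probes, for 49 genes. The array carried 6 probes for histone H1, 15 for H2A, 12 for H2B, 8 for H3 and 14 for H4. Of the 55 probes, 50 (46 genes) passed the filter on dim probes described here: in wild-type or in Trp53-/- NSPCs, 1 of the colours had to exceed background clearly on both arrays. The 5 that did not pass were the only probes of Hist1h1d, Hist1h2bq and Hist3h2bb-ps, 1 of the 2 probes of Hist2h4 and 1 of the 2 probes of Hist4h4. The downstream probe of Hist1h4i carried a histone gene name in 3 of the 4 files and the other 54 in all 4.

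The paper names Slc:ICR mouse embryos at embryonic day 13.5 as the source of its NSPCs, which grew in neurosphere medium with EGF and FGF. The strain of the Trp53 line is not given in the sources used here, so strain may differ with genotype. RNA was measured on 4 two-colour arrays, 2 from wild-type and 2 from Trp53-/- NSPCs, which lack p53 and were bred from Trp53-heterozygous mice. On every array Cy5 marked RNA of cells treated with 20 μM PJ34 and Cy3 marked RNA of untreated cells of the same genotype, with RNA prepared independently for each array (n = 2 per genotype). The dyes were not swapped, so a dye bias of a probe and the effect of PJ34 cannot be told apart within a genotype, and the hours of treatment for these arrays are not given in the sources used here.

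Replication-dependent histones package newly made DNA. Their genes lie in clusters, hold no introns and are transcribed mostly in S phase, and their mRNAs usually end not in a poly(A) tail but in a conserved stem-loop that the protein SLBP binds. Core histones H2A, H2B, H3 and H4 form the nucleosome and H1 binds the linker DNA between nucleosomes. Some of these genes can also give longer, polyadenylated mRNAs that run past the stem-loop, a form known from cells that leave the cell cycle. The RNA was labelled with a kit that primes on poly(A) tails, so the place of a probe in the mRNA bears on what it can read.

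The probes are 60 bases long. The histone stem-loop, searched on the probe strand, was found in 6 probes. A 30-base window around it is shown for each, with the stem-loop in capitals, because the probes differ in how far they run past it.
Hist2h2aa1: aaaaGGCTCTTTTCAGAGCCacccactgaa
Hist2h2bb: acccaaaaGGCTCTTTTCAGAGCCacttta
Hist1h3a: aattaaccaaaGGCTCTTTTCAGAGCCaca
Hist1h3i: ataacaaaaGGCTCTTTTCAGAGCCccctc
Hist1h3g: cactttaaaGGCTCTTCTTAGAGCCaccca
Hist1h4m: caactaaaGGCCCTTTTCAGGGCCatccaa
The probe of Hist2h2aa1 ran 38 bases past the stem-loop, and the other 5 ran between 3 and 6 bases past it.

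Another 5 probes are shown because they gave, with Hist2h2aa1, the strongest increases. Their first 30 bases are printed, in lower case because they hold no stem-loop match, and all of them start far along their listed mRNA.
Hist1h2bc: gctgcaaaattaagatgctcctagcaaaag
Hist1h1c: tacacttgctttgccttattttgatcagca
Hist1h4i: gggaatcccaatagagccttctgcttggga
Hist3h2a: aaggttctggtttagatgctagtgtttcta
Hist2h3c2-ps: agctgaaggctgagatctagcttacagctc
With positions counted from 0 at the start of the listed mRNA, the probe of Hist1h2bc starts at base 632 (mm9, chr13:23784254-23784313), that of Hist1h1c at base 1342 (chr13:23832018-23832077), that of Hist1h4i at base 574 (chr13:22132591-22132650), that of Hist3h2a at base 767 (chr11:58768954-58769013) and that of Hist2h3c2-ps, a pseudogene by its name, at base 957 (chr3:96042034-96042093).

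Many H2A probes lie instead at the end of the coding region, where the genes are nearly alike. The 3 whole probes below carry in capitals the longest run that each shares with a probe of another histone gene, 42 bases between Hist1h2ah and Hist2h2ac and 41 bases between Hist1h2af and Hist1h2ah.
Hist1h2ah: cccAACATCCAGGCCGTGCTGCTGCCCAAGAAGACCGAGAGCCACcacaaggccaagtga
Hist2h2ac: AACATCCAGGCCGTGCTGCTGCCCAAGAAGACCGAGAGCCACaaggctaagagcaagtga
Hist1h2af: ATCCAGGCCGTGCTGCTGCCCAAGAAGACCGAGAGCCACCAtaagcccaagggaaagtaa
These probes lie at chr13:22127035-22127094, chr3:96024378-96024437 and chr13:23626113-23626172 of mm9, so genes on different chromosomes share most of a probe. In all, 8 of the 55 probes shared a run of over 30 bases with a probe of another member, and 15 were listed in the files with more than 1 RefSeq mRNA, so signals of such paralogs cannot be told apart and their probes are not independent measurements.

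Trp53-/- replicate 2 stood apart from the other arrays in sex-linked genes. The Y-linked Eif2s3y had a log2 ratio of 4.22 and Ddx3y of 3.12 there, against -0.20 to 0.84 and -0.20 to 0.18 on the other arrays, and Xist had -3.08 against 0.38 to 0.81. The 2 RNAs of this array thus differed in sex-linked genes. The untreated genotypes differed in them too. Untreated Eif2s3y read 8.96 and 8.47 in wild-type and 6.01 and 6.24 in Trp53-/- cells on the log2 scale. Untreated Ddx3y read 8.25 and 8.06 against 6.04 and 6.17. The astrocyte marker Gfap had a log2 ratio of 1.62 on Trp53-/- replicate 2 and 0.00 on Trp53-/- replicate 1. The part of these in the histone values was not tested. Some results that rest on Trp53-/- replicate 2 are given without it too, among them Hist1h1a, Hist4h4 and counts of probes, but not all. The Trp53 probe itself read 8.28 and 8.51 in untreated wild-type and 7.56 and 7.82 in untreated Trp53-/- cells on the log2 scale, and whether it lies in the deleted part of the gene is not given in the sources used here. The control colour had 21505 to 24540 probes well above background per array and the PJ34 colour 26081 to 27156, and no spot was saturated.

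In wild-type NSPCs the members moved in both directions. Of 50 probes, 6 rose more than 2-fold at q below 0.05 (limma, Storey's q), where 0.263% of all 27042 probes passed the same rule, and 0 fell by that rule, against 0.174% of all. Without a fold limit, 12 rose (12.3% of all probes) and 15 fell (10.4% of all). At an unadjusted p below 0.05, 13 were higher and 19 lower. The median log2 ratio of PJ34 over untreated was -0.08 for the 50 probes and 0.03 for all probes. The 6 were 2 H2A probes and 1 of each other class, while 10 of the 15 that fell were H2A probes, and 0 of the 15 falls held with median centring of the arrays in place of loess. Unless said otherwise, values are log2 ratios after loess normalization within each array. In bulk samples, fewer cells in S phase and less histone mRNA per cell cannot be told apart.

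Hist1h2bc, which encodes an H2B, had the highest ratio. It was 2.33 and 1.81 on the wild-type arrays and 1.01 and 1.05 on the Trp53-/- arrays. Both wild-type values lay above both Trp53-/- values. The wild-type mean was 2.07 (SE 0.12), a 4.20-fold increase with q = 1.36e-05, and the Trp53-/- mean was 1.03 (SE 0.12, q = 0.000427), the one member called more than 2-fold there. The 2 responses differed by 1.04 (SE 0.17) with q = 0.0154. That call was lost with a background offset of 16 (1.06, q = 0.112), with median centring (0.82, q = 0.226) and with the scanner's log ratio (1.06, q = 0.285).

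The downstream probe of Hist1h4i, which encodes an H4, read 1.93 and 1.45 in wild-type against 0.79 and 0.63 in Trp53-/- NSPCs. The wild-type pair was again entirely above the Trp53-/- pair. The means were 1.69 (SE 0.12, q = 2.11e-05) and 0.71 (SE 0.12, q = 0.00232), and the difference of 0.98 had q = 0.0189, just short of 2-fold. It missed the threshold with offset 16 (1.03, q = 0.118), median centring (0.78, q = 0.283) and the scanner's log ratio (1.09, q = 0.285). The other 2 probes of the gene read lower: the one starting at base 483 had a wild-type mean of 0.52 (q = 0.00171) and the one starting at base 23 had 0.16 (q = 0.147). Probes of 1 gene thus disagreed by more than their standard errors of 0.09 to 0.12.

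Hist1h1c encodes a linker histone. Its ratios were 1.91 and 1.42 in wild-type and 1.07 and 0.51 in Trp53-/- NSPCs, so the pairs did not overlap, with means of 1.66 (SE 0.14, q = 7.91e-05) and 0.79 (SE 0.14, q = 0.00333). The difference of 0.87 missed the threshold (q = 0.0611). Hist2h2aa1, an H2A gene, read 1.65 and 1.40 in wild-type and 0.76 and 1.24 in Trp53-/- NSPCs. Its means were 1.53 (SE 0.12, q = 4.35e-05) and 1.00 (SE 0.12, q = 0.000538), and the difference of 0.53 did not pass (q = 0.145, 95% interval 0.15 to 0.91).

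Hist3h2a, an H2A gene outside the main cluster, read 1.16 and 1.07 in wild-type and 0.85 and 0.76 in Trp53-/- NSPCs, the narrowest spread of the 6 over all 4 arrays. Its means were 1.11 (SE 0.09, q = 5.18e-05) and 0.80 (SE 0.09, q = 0.000392), with a difference of 0.31 at q = 0.231. Hist2h3c2-ps read 1.32 and 0.94 against 0.46 and 0.80. Its means were 1.13 (SE 0.12, q = 0.000209) and 0.63 (SE 0.12, q = 0.00364), and its untreated signal was near background, well above it on 3 of 4 arrays. All 6 probes had a ratio above 0 on every array of both genotypes.

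**Figure D1:**
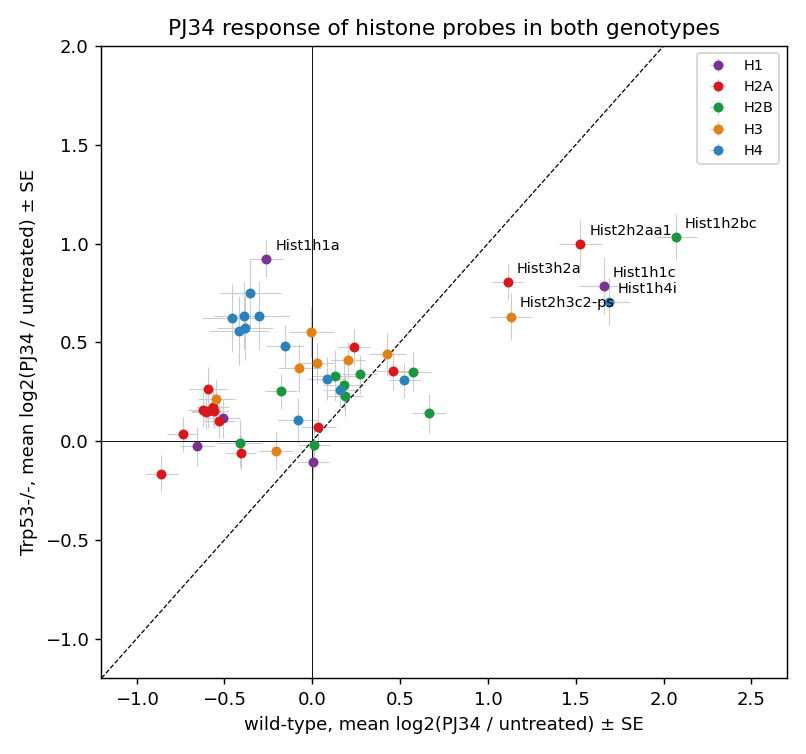
Mean log2 ratio of PJ34 over untreated in wild-type (x axis) against Trp53-/- NSPCs (y axis) for the 50 probes kept, coloured by histone class, with standard errors (n = 2 arrays each); the dashed line marks equal responses, and the probes called in either genotype or in the difference are named. The 6 named probes at the right rose in both genotypes, Hist1h1a rose in Trp53-/- NSPCs, and a group of H2A, H1 and H4 probes lies left of 0 in wild-type and above 0 in Trp53-/- NSPCs; the left-hand position of the H2A probes is lost with median centring.

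Most H2A probes had ratios below 0 in wild-type after loess, a sign that median centring turned. In wild-type, 10 of its 15 probes fell and 3 rose without a fold limit, with a class median of -0.56, but with median centring in place of loess 0 fell, 4 rose and the class median was 0.29, where the median over all probes stood at 0.42. In Trp53-/- NSPCs, 0 H2A probes fell, 4 rose and the class median was 0.15. The brightest members were in this class: 7 probes had a mean untreated level above 17 on the log2 scale in wild-type, and all 7 fell after loess, with means between -0.74 and -0.53, while with median centring their means ran from 0.13 to 0.34. Relative to the median of all probes, their median was -0.13 with median centring. These 7 were picked by the untreated level that the ratio is divided by, so the choice favours a low wild-type ratio. Each shares a run of 29 to 42 bases with another of them, so they are not independent measurements.

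Hist1h2ah, 1 of the 7, read -0.57 and -0.63 in wild-type and 0.14 and 0.16 in Trp53-/- NSPCs. The genotypes were far apart relative to the spread within each. After loess the wild-type mean was -0.60 (SE 0.09, q = 0.000833), the Trp53-/- mean was 0.15 (SE 0.09, q = 0.145) and the difference was -0.75 (SE 0.13, q = 0.0175). Hist2h2ac, on chromosome 3, read -0.51 and -0.62 against 0.16 and 0.18, and its difference was -0.73 (q = 0.0195). Both differences missed the threshold with offset 16 (-0.77 and -0.75, q = 0.112 for both), the scanner's log ratio (q = 0.273 and 0.278) and median centring (-1.11, q = 0.118 and -1.08, q = 0.121). The 2 probes share 42 of their bases, so their likeness is not independent.

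The lowest member of all was a probe at the start of Hist1h2ak, at -0.76 and -0.96 in wild-type and -0.20 and -0.13 in Trp53-/- NSPCs. Its wild-type mean was -0.86 (SE 0.09, q = 0.000236) after loess. With median centring it was -0.09 (q = 0.207), still below the median of all probes in that setting. Its Trp53-/- mean was -0.17 (q = 0.134) after loess. The other probe of the gene, at the end of the coding region, read -0.62 and 0.16. Hist2h2ab, a dim H2A probe that shares no more than 9 bases in a row with any other member, also fell in wild-type after loess, at -0.41 (q = 0.00596), a call lost with median centring, and was at -0.06 in Trp53-/- NSPCs. Hist1h2aa, a testis-type H2A gene, had a ratio above 0 on all 4 arrays, with means of 0.24 (q = 0.0536) and 0.48 (q = 0.00383).

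Among linker histones, Hist1h1b and Hist1h1e fell in wild-type with means of -0.51 (q = 0.00312) and -0.65 (q = 0.000843). With median centring their values turned to 0.22 and 0.06, though both stayed below the median of all probes. Their Trp53-/- means were 0.11 and -0.03, and the differences between genotypes passed the threshold narrowly, at -0.62 (q = 0.0482) and -0.63 (q = 0.0476). Neither passed with no background correction (q = 0.0862 and 0.0849), offset 16 (q = 0.160 for both), the scanner's log ratio (q = 0.300 and 0.296) or median centring (-0.88, q = 0.336 and -0.90, q = 0.226). Hist1h1t, a testis-specific linker histone, stayed near 0 at 0.00 and -0.10.

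Hist1h1a had the strongest difference of all members. Its probe (chr13:23855888-23855947 of mm9) is shown whole, since it shares no more than the 11 bases in capitals with the probe of another member.
Hist1h1a: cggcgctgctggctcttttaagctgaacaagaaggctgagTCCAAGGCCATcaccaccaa
The ratios were -0.28 and -0.24 in wild-type and 0.83 and 1.02 in Trp53-/- NSPCs. Both wild-type arrays were below 0 and both Trp53-/- arrays well above it. The means were -0.26 (SE 0.09, q = 0.0436) and 0.92 (SE 0.09, q = 0.000256), and the difference of -1.18 (SE 0.13, 95% interval -1.48 to -0.89) was called with q = 0.00221, where 0.0222% of all probes were called lower and 0.399% higher in wild-type. With median centring the wild-type value turned to 0.36, still below the median of all probes, and the difference was -1.36. Without Trp53-/- replicate 2 the difference was -1.09.

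H4 probes had ratios mostly below 0 in wild-type and above 0 in Trp53-/- NSPCs after loess, but the Trp53-/- replicates lay far apart. With median centring the class medians were 0.35 in wild-type and 1.498 in Trp53-/- NSPCs. The wild-type one lay below the median of all probes in that setting and the Trp53-/- one above it. In wild-type the median after loess was -0.23, with 2 of 12 probes higher and 0 lower at q below 0.05. At an unadjusted p below 0.05, 2 were higher and 4 lower. In Trp53-/- NSPCs, 11 of 12 rose, with a class median of 0.57, but that median was 0.17 on replicate 1 and 0.83 on replicate 2. A pair of H4 probes from the start of the coding region is shown, with the 26-base run that they share in capitals.
Hist1h4j: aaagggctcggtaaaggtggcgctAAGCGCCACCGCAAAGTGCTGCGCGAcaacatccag
Hist1h4k: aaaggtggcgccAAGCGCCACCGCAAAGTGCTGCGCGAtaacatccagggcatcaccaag
Hist1h4j (chr13:21826989-21827048) read -0.27 and -0.35 in wild-type and 0.15 and 1.12 in Trp53-/- NSPCs, and Hist1h4k (chr13:21842279-21842338) read -0.32 and -0.45 against 0.14 and 1.01. In both probes the Trp53-/- replicates lay farther apart than the wild-type arrays lay from Trp53-/- replicate 1.

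The highest H4 value was at Hist4h4, outside the main clusters, which read -0.23 and -0.47 in wild-type and 0.28 and 1.22 in Trp53-/- NSPCs. Its Trp53-/- mean was 0.75 (SE 0.17, q = 0.00901) and its difference of -1.11 (SE 0.25) missed the threshold with q = 0.0506. It was -0.64 (q = 0.0877) without Trp53-/- replicate 2 and -1.57 (q = 1.74e-05) without replicate 1. The difference was similar at Hist1h4d (-1.08, q = 0.0535) and at Hist2h4 (-1.02, q = 0.0612). Their Trp53-/- replicates also lay far apart, at 0.16 and 1.08 for Hist1h4d and at 0.18 and 1.09 for Hist2h4. Of the 12 H4 probes, 10 had a lower ratio in wild-type and 1, the downstream probe of Hist1h4i, passed in the other direction. Without Trp53-/- replicate 2, 1 of 12 H4 probes rose in Trp53-/- NSPCs and 0 of 8 H3 probes did.

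Apart from Hist1h2bc and Hist2h3c2-ps, H2B and H3 probes had smaller values. In H2B, 4 of 10 probes rose and 1 fell in wild-type (median 0.18), and 4 rose and 0 fell in Trp53-/- NSPCs (median 0.27). Besides Hist1h2bc, the risers in wild-type were Hist1h2bg (0.67, q = 0.000852), Hist3h2ba (0.58, q = 0.00183) and Hist1h2be (0.27, q = 0.0461). The untreated signal of Hist1h2bg was well above background on 1 of 4 arrays. Hist1h2bb fell after loess (-0.41, q = 0.0215). With median centring Hist1h2bb was at -0.22 (q = 0.0908), still below the median of all probes in that setting. Hist1h2ba, a testis-type H2B gene, was at 0.18 and 0.28, short of the threshold in both. Hist2h2be, 1849 bases along its mRNA, was at 0.01 and -0.02.

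In H3, 2 of 8 probes rose and 1 fell in wild-type (median 0.01), and 6 rose in Trp53-/- NSPCs (median 0.40). Hist2h3b fell in wild-type after loess, where it read -0.38 and -0.71 (mean 0.13 with median centring, below the median of all probes). It read 0.14 and 0.28 in Trp53-/- NSPCs. Its difference of -0.76 (SE 0.15) passed with q = 0.0312, the one H3 probe that did, and missed with no background correction (q = 0.0622), offset 16 (q = 0.143), the scanner's log ratio (q = 0.285) and median centring (q = 0.116). Hist1h3g, one of the stem-loop probes, rose in both genotypes, at 0.43 (q = 0.0101) and 0.44 (q = 0.00986), and the 95% interval of its difference ran from -0.34 to 0.31. Hist1h3i was at -0.21 (q = 0.0885) and -0.05. Hist1h3a was at 0.00 in wild-type and at 0.55 (q = 0.0089) in Trp53-/- NSPCs, where its arrays read 0.26 and 0.84.

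**Figure D2:**
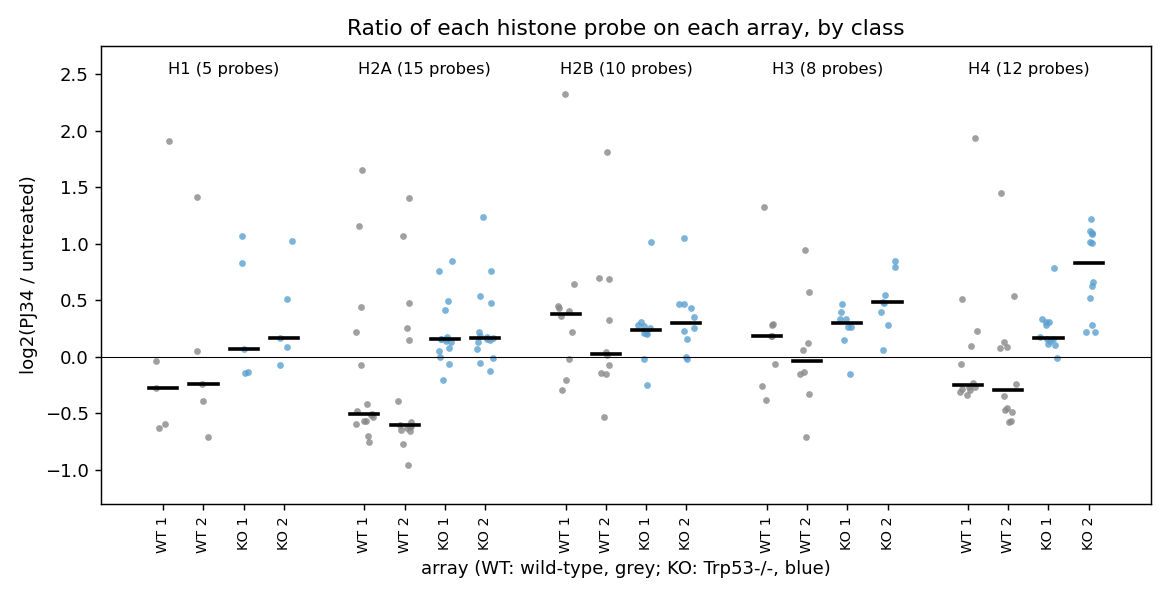
Log2 ratio of PJ34 over untreated (y axis) for each kept probe on each array (x axis), grouped by histone class; points are probes and black bars the class medians. The H2A medians are -0.51 and -0.60 on the wild-type arrays and 0.15 and 0.16 on the Trp53-/- arrays after loess. With median centring the wild-type H2A median is above 0 but below the median of all probes. The H4 medians are 0.17 and 0.83 on the 2 Trp53-/- arrays.

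Over the 5 classes, 27 of the 50 probes rose in Trp53-/- NSPCs without a fold limit (12.0% of all probes did) and 0 fell (9.68% of all did). At an unadjusted p below 0.05, 30 were higher and 0 lower. More than 2-fold, 1 rose (0.0703% of all) and 0 fell (0.248% of all). The median of the 50 was 0.31, against 0.03 for all probes. Without Trp53-/- replicate 2 the count of 27 was 7 and the median 0.19, and without replicate 1 the count called more than 2-fold was 9. In the difference between genotypes, 13 of 50 had a lower response in wild-type at q below 0.05 (0.355% of all) and 2 a higher one (1.11% of all), where 1.46% of all probes passed in either direction. Of the 13, 9 were H2A, 3 H1 and 1 H3, and the 2 were Hist1h2bc and the downstream probe of Hist1h4i. With median centring 1 was lower and 0 were higher, and with a background offset of 16 the counts were again 1 and 0. The 7 bright H2A probes, picked by their untreated wild-type level, had a median difference of -0.75 after loess, -1.10 with median centring and -0.76 with offset 16.

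The place of a probe along its mRNA went with its response. A probe was set as downstream when it started beyond base 500 (700 for H1, whose coding region is longer), limits chosen after the values were seen, so no test is given. Of the 12 downstream probes, Hist1h2ae, Hist1h2ac, Hist1h2bp and Hist1h2bg passed the filter through the PJ34 colour alone, so the filter favoured a high ratio there. Of the other 8, 7 rose and 0 fell in wild-type, with a median of 1.12 and a range from 0.01 to 2.07, and over all 12 the median was 0.62. Of the other 38, 3 rose and 15 fell, with a median of -0.33. In Trp53-/- NSPCs the medians of the 12 and the 38 were 0.35 and 0.27, and the difference of responses had a median of 0.27 for the downstream probes and -0.63 for the others. With median centring the wild-type medians were 1.04 and 0.33, so the order of the sets held in wild-type and the sign of the second turned. Less the median of all probes in that setting they were 0.62 and -0.09, so the others stayed slightly below it. The wild-type median of the others was -0.35 with no background correction, -0.35 with offset 16 and -0.33 with the scanner's log ratio. In Trp53-/- NSPCs median centring gave 0.86 for the downstream probes and 1.24 for the others, the reverse order to that after loess.

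Of the 6 probes called in wild-type, 5 were downstream. The sixth, Hist2h2aa1, starts at base 488 and is the stem-loop probe that runs 38 bases past its stem-loop, while the 5 that end 3 to 6 bases past theirs had wild-type means from -0.21 to 0.43. Hist2h2aa2, a paralog probed at base 333 of its mRNA, read -0.53 after loess (q = 0.00175), a fall lost with median centring. Base composition went with position, with a median G and C share of 38.4% in the downstream probes and 55% in the others, and its part was not tested. Not every downstream probe rose. Hist1h2ae, at base 541, was well above background in the untreated cells on 0 of 4 arrays, and its wild-type mean was 0.04 (q = 0.434). Hist1h2ac at base 2426 was likewise not above background in the untreated cells, which gives a PJ34 level at least 1.30-fold higher in wild-type (fitted q = 0.0054).

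**Figure D3:**
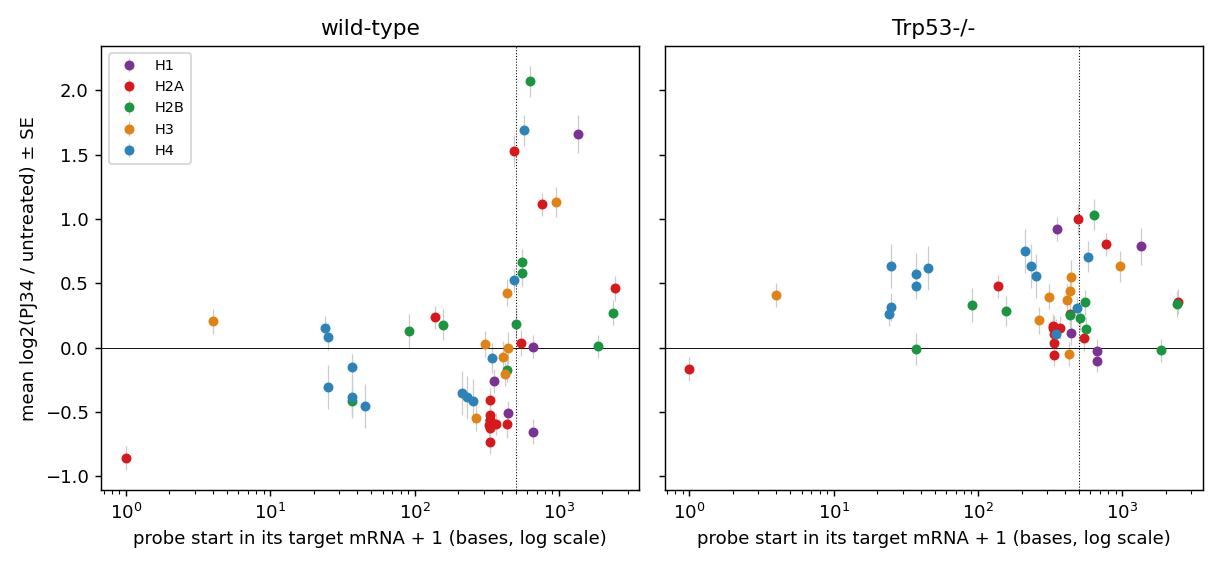
Mean log2 ratio of PJ34 over untreated with its standard error (y axis, n = 2 arrays) against the start of the probe in its listed mRNA plus 1 (x axis, log scale), in wild-type (left) and Trp53-/- NSPCs (right), coloured by histone class; the dotted line marks base 500. In wild-type the highest values, up to 2.07, lie near or beyond the line and, after loess but not with median centring, values below -0.5 lie left of it except for Hist1h1e at base 661, and in Trp53-/- NSPCs the highest value is 1.03.

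In untreated cells no member differed between genotypes by more than 2-fold at q below 0.05 (3.32% of all probes did, with 1.67% higher and 1.65% lower), and 0 did so at an unadjusted p below 0.05 either. Without a fold limit, 1 of 50 was lower in Trp53-/- cells (2.91% of all) and 0 were higher (3.12% of all), against 6.03% of all in either direction. That one was Hist1h2aa, with untreated levels of 8.37 and 8.56 in wild-type and 7.37 and 7.78 in Trp53-/- cells and a difference of -0.88 (q = 0.0471). At an unadjusted p below 0.05, 6 were lower and 1 higher. The median difference of Trp53-/- minus wild-type was -0.19, with 35 of 50 lower. Without wild-type replicate 1, 29 were lower at q below 0.05, and without wild-type replicate 2, 15 were higher and 6 lower.

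The untreated RNAs of the genotypes also differed in the Y-linked Eif2s3y and Ddx3y, so sex-linked differences and genotype cannot be told apart. The wild-type arrays disagreed in untreated levels more than the Trp53-/- arrays did. Untreated levels on wild-type replicate 2 were the highest of the 4 for 38 of 50 probes, and lay a median of 0.53 above those on replicate 1, against -0.02 between the Trp53-/- replicates. In H4 the gap was 1.12. Hist4h4 read 11.29 and 12.91 in wild-type and 12.52 and 12.80 in Trp53-/- cells. The wild-type values bracket the Trp53-/- ones, so no order can be given. Hist3h2ba had the largest difference, 1.14, from 9.12 and 10.75 in wild-type to 10.98 and 11.17 in Trp53-/- cells, where the pairs did not overlap and q was 0.141. Hist1h1a read 9.75 and 10.94 in wild-type and 9.50 and 9.41 in Trp53-/- cells (-0.89, q = 0.134), and Hist1h1c read 10.66 and 11.01 against 10.02 and 10.18 (-0.74, q = 0.0577).

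**Figure D4:**
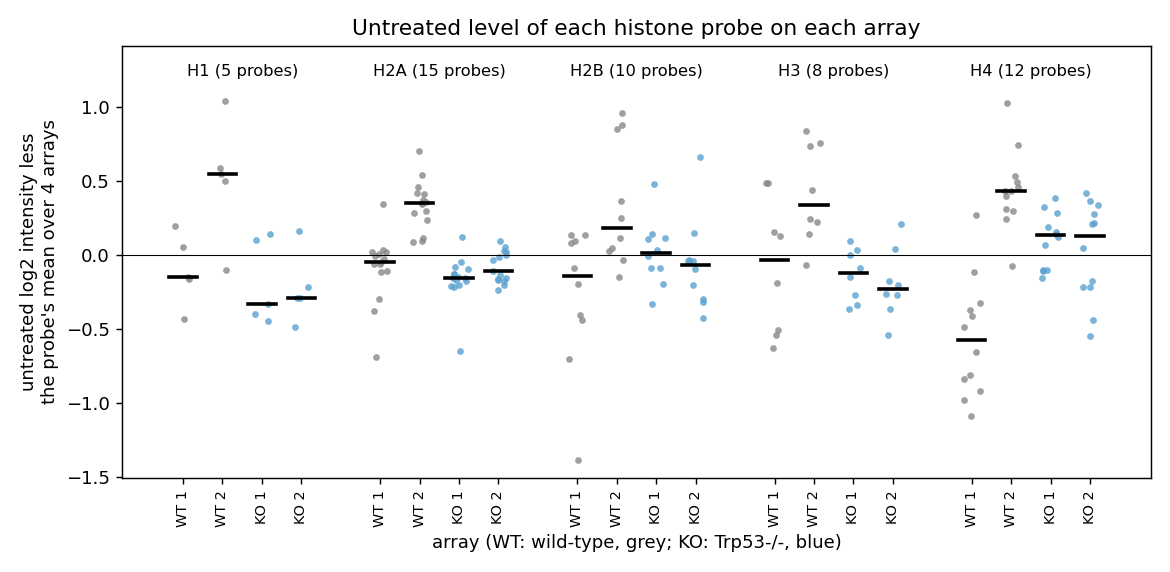
Untreated log2 intensity of each kept probe less its mean over the 4 arrays (y axis) on each array (x axis), by histone class; points are probes and black bars class medians. Wild-type replicate 2 is highest in every class, and the H4 medians on the wild-type arrays are -0.57 and 0.43, while those of the Trp53-/- arrays are both 0.13.

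Genes that make and handle histone mRNA were read from a list, of which 18 of 20 had a kept probe. With median centring 109 of all 27042 probes were lower in wild-type at q below 0.05 and 112 in Trp53-/- NSPCs, so the falls given here for the gene lists hold after loess. In wild-type 5 of the 18 fell (10.4% of all probes did) and 1 rose, with a list median between -0.14 and -0.07 on the 2 arrays. In Trp53-/- NSPCs 2 rose, a share near the 12.0% of all probes, and 0 fell. Slbp, the stem-loop binding protein, fell to -0.46 and -0.48 in wild-type (mean -0.47, SE 0.09, q = 0.0029) and stayed at 0.01 and -0.02 in Trp53-/- NSPCs. The difference of -0.46 did not pass (q = 0.0918). Lsm11, a subunit of the U7 particle that cuts histone pre-mRNA, fell in wild-type (-0.58, q = 0.00147), as did Zfp473 (-0.30), Cdk2 (-0.26) and Ccne1 (-0.28). Cpsf2 rose in both genotypes (0.32 and 0.59) and Casp8ap2 in Trp53-/- NSPCs (0.50). No gene of this list differed between genotypes at q below 0.05.

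Histone chaperones handle free histones, and some carry them to the replication fork. Of 22, 5 fell in wild-type (10.4% of all probes did): Nasp (-0.71, q = 0.00058), Chaf1b (-0.62, q = 0.00149), Asf1b (-0.59, q = 0.00145), Mcm2 (-0.43) and Ssrp1 (-0.29). In Trp53-/- NSPCs 0 fell and 4 rose (12.0% of all probes did), led by Chaf1a (0.32), and Chaf1b differed between genotypes by -0.71. Among 12 replication-independent histone variants, 3 rose and 4 fell in wild-type (12.3% and 10.4% of all probes did). In Trp53-/- NSPCs 4 rose and 2 fell (12.0% and 9.68% of all). H3f3a and H3f3b, which encode H3.3, rose in both genotypes. H3f3b rose by 0.75 in wild-type (q = 0.000381) and 0.63 in Trp53-/- NSPCs, and H3f3a by 0.54 and 0.41. H1f0, a linker histone of resting cells, rose by 0.25 and 0.30. Cenpa, the centromeric H3, fell in both, with values of -1.02 and -0.95, and H2afx fell in wild-type (-0.49, q = 0.0063).

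The S phase list held genes of DNA replication. Of 28 genes, 20 fell and 1, Ung, rose in wild-type, where 10.4% of all probes fell and 12.3% rose. The list medians were -0.38 and -0.44 on the 2 arrays. In Trp53-/- NSPCs 0 fell (9.68% of all) and 6 rose (12.0% of all), with medians of 0.18 and 0.07. Of 24 genes of the G2 and M phases, 22 fell in wild-type (10.4% of all) and 12 in Trp53-/- NSPCs (9.68% of all) after loess. These lists were set with earlier results of the same arrays known, and in all of them the counts are those at q below 0.05 without a fold limit.

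Progenitor markers were present on all arrays, 8 of 8 kept, with a summed untreated level between 16.95 and 17.32 on the log2 scale in wild-type and of 17.02 in Trp53-/- cells. In untreated Trp53-/- cells the oligodendrocyte marker Mbp was 1.98 higher and the astrocyte marker Gfap 2.38 higher than in wild-type on the log2 scale. The summed astrocyte markers read 14.90 to 15.03 in wild-type and 15.15 to 15.25 in Trp53-/- cells, and the neuron markers 13.20 to 13.50 and 12.92 to 12.94. Of the 6 astrocyte markers 4 were higher in Trp53-/- cells, Gfap the most, and 2 were lower. Of the 8 neuron markers 5 were higher and 3 lower, with a median difference of 0.54, although their sum was lower. Of the 7 microglia and endothelial markers, Aif1, Cx3cr1, Ptprc and Cdh5 were not kept, and the summed level was 13.22 to 13.23 in wild-type and 11.89 to 12.09 in Trp53-/- cells. The part of these cell types in the untreated histone levels was not tested.

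Promoter sequence was available from RefSeq (GRCm38.p6, windows around the start of each gene) for 42 of the 49 genes and is described by class. Motifs were searched on both strands by their letters, and none of them contains another. CCAAT was found in 36 of 42 promoters (85.7%, against 37.9% of 27025 promoters) and TATAAA in 26 (61.9%, against 14.2%). The octamer core ATTTGCA was found in 12 (28.6%, against 3.98%), 7 in H2A and 5 in H2B, and the H1 box core AAACAC in 14 (33.3%, against 16.3%), among them all 6 of H1. The E2F core TTTGGCG was found in 0 (1.59% of all) and the p53 decamer, the repeated unit of its response element, in 5 (11.9%, against 8.37%). CCAAT was in every promoter of H1, H2A, H2B and H3 and in 2 of 8 of H4. The 2 H1 genes that moved most are shown from 190 bases before to 20 after the start, with the letters of the CCAAT box, the octamer core and the H1 box on either strand, and of the TATA box on the printed strand, in capitals.
Hist1h1a: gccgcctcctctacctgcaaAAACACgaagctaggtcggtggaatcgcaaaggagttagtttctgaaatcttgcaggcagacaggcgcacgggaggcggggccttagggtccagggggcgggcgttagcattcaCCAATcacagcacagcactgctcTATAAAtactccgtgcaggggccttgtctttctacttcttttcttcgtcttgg
Hist1h1c: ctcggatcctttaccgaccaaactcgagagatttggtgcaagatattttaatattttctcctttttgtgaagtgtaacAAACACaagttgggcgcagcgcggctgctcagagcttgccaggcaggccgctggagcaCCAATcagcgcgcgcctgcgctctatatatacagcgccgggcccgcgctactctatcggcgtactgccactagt
They lie at chr13:23763478-23763687 and chr13:23738617-23738826 of GRCm38.p6, both on the plus strand. Both held the H1 box and CCAAT letters, and the difference in response was -1.18 (q = 0.00221) at Hist1h1a and 0.87 (q = 0.0611) at Hist1h1c.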

How the data were processed

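RNA of PJ34-treated (Cy5) and untreated (Cy3) NSPCs was hybridised to 4 Agilent SurePrint G3 mouse arrays, each on its own slide. The authors extracted the scanner intensity of each spot with Feature Extraction 10.7.3.1, and these intensity values, not yet normalized between arrays, were deposited. The log10 ratio of red over green was deposited in the same files and served as an alternative. The members and gene lists were chosen with earlier results of these data known. With limma 3.58.1 in R 4.3.3, background was corrected by normexp (offset 50), arrays were normalized by loess and spots of a probe were averaged. Probes with at least 1 colour well above background on both arrays of a genotype were kept. A mean per genotype was fitted over all 4 arrays. A probe was called at p and Storey's q below 0.05 and over 2-fold. Untreated levels were log2 Cy3 values after loess and Aquantile. The steps were tested on simulated data. The text draws its named probes from called probes, the 2 highest and 2 lowest per class and comparison, and every probe of those genes. It also draws on the called, highest and lowest genes of each list. Not all of these are given, and further members were chosen after their values were seen. RNA was prepared separately for each array, and nothing says that the cultures came from separate animals. In a table of the whole series, 4 columns matched no sample label and were not used. Replicate numbers were not taken as pairs. The number of arrays limits the precision. The summed level of the oligodendrocyte markers is not reported here.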

Additional observations from a re-analysis of the deposited data

Results flagged for a closer look

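For 2 members the response to PJ34 differed between wild-type and Trp53-/- NSPCs in the test of the difference itself and by over 2-fold. Hist1h1a had a difference of -1.18 (limma, q = 0.00221), lower in wild-type, where both arrays were below 0 after loess and both Trp53-/- arrays above 0. It missed the threshold with the scanner's log ratio (q = 0.257). Hist1h2bc had a difference of 1.04 (limma, q = 0.0154), higher in wild-type, with both arrays of each genotype above 0. Its call was lost with a background offset of 16 (q = 0.112), median centring (0.82, q = 0.226) and the scanner's log ratio (q = 0.285).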

How the results depend on the processing

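The 4 arrays give 2 values per genotype, so single arrays weigh heavily. Median centring in place of loess moved the median of all probes to 0.42 in wild-type and 0.57 in Trp53-/- NSPCs. It gave 21 higher and 0 lower without a fold limit in wild-type, and in Trp53-/- 42 higher and 33 more than 2-fold. It gave 0 called higher and 0 past q higher in the difference, with 1 lower past q. Its turned values were, in wild-type, Hist1h1b 0.22, Hist1h1a 0.36, Hist1h1e 0.062, Hist2h2bb 0.49, Hist1h2an 0.13 and Hist2h3b 0.13, and in Trp53-/-, Hist1h1e 0.96, Hist1h2ak (start probe) 0.91 and Hist1h3i 0.60. The scanner's log ratio gave in Trp53-/- 3 called and 6 past q higher, and 0 in every count of the difference. An offset of 16 gave 2 called higher in Trp53-/-, 1 called lower in untreated cells, and in the difference 0 called higher, 0 past q higher and 1 lower. A test against 2-fold gave 1 in wild-type and 0 in Trp53-/- and the difference. For the difference, no background correction gave 2 called higher and 7 past q lower, scaling between arrays 2 higher and 3 lower called, no filter 4 called and 20 past q lower, the strict filter 3 called lower, the variance trend 4, and 1 probe per gene 3 called lower and 1 past q higher. In untreated cells the count past q lower was 0 without the filter, with the strict filter and with Benjamini-Hochberg adjustment, 2 with 1 probe per gene and 3 by separate channels, and the processed signal gave 1 called lower. With the replicate number as a block, untreated counts were 1 called and 1 past q higher and 5 lower, and the difference had 4 called lower and 19 past q lower. The pairing correlation of same-numbered arrays was -0.17 for ratios and 0.07 for untreated levels. A crossed pairing, chosen after seeing the data, gave 4 called lower, 6 past q higher and 20 past q lower in the difference. Leaving out each array in turn gave 5 to 6 called higher in wild-type and 12 to 21 past q lower. In Trp53-/- it gave 1 to 9 called (9 without Trp53-/- replicate 1) and 7 to 29 past q higher (7 without replicate 2). In the difference it gave 0 to 3 called higher, 1 to 8 called lower, 2 to 4 past q higher and 6 to 21 past q lower. In untreated cells it gave 0 to 6 called higher and 0 to 15 past q higher (6 and 15 without wild-type replicate 2), and 0 to 6 called lower and 0 to 29 past q lower (6 and 29 without wild-type replicate 1). The untreated difference of Hist2h2aa1 ran from -0.70 without wild-type replicate 1 to 0.69 without replicate 2, and that of Hist1h3d from -0.40 without wild-type replicate 1 to 0.55 without replicate 2. Hist1h1a lost its call in the difference with the scanner's log ratio (-1.28, q = 0.257) and in the test against 2-fold. Hist1h2bc lost its q there (q = 0.285), with offset 16 (q = 0.112) and with median centring (0.82, q = 0.226). The cause was not tested.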
